A study of Mus musculus with 6 samples.

Results

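Unannotated transcribed regions are stretches of the genome to which RNA fragments mapped in these livers, although no annotated gene lies there. The deposited gene table holds 55709 rows, of which 55414 are annotated genes. All other rows were taken, 278 regions above 0 in some library and 17 at 0 in every one, with no choice by level or by change. The authors gave each an identifier ending in a number, and the regions are called by that number here (region 64, for example). Livers came from male mice aged 12 weeks that had been fasted for 16 hours. The groups were GapAlb KO mice, in which Gapdh is deleted in hepatocytes, with 5% serine in the drinking water (knockout on serine), GapAlb KO mice on plain water (knockout on water) and Gapfl mice, which carry the floxed gene, on plain water (control). There were 2 libraries in a group, and every library pooled RNA of 2 animals, so that p-values measure the spread between pools. A control on serine was not analysed here, and a serine response in control livers cannot be set beside that of the knockout. RNA was taken from whole liver, in which fewer cells of a type and less RNA per cell cannot be told apart.

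Transcribed regions without a gene model arise when fragments are assembled on the genome and the assembled blocks fall outside the annotation. They can be extensions of neighbouring genes, divergent transcripts from a gene start, independent long noncoding RNAs, genes that an annotation lacks, or copies of transposable elements. Endogenous retroviruses are remnants of retroviral insertions that keep stretches of the gag, pol and env genes, which encode the structural proteins, the enzymes and the envelope, and in the mouse many copies can still be transcribed. LINE-1 elements are another class of retrotransposons, with a pair of open reading frames of their own. Copies within such families resemble each other, so a fragment may map to several of them.

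Among rows above 0, the median level of the regions lay between those of annotated long noncoding RNAs and protein-coding genes. Levels are in FPKM, fragments scaled to transcript length and to the number mapped in the library, and the level of a region is its mean over the 6 libraries unless single libraries are given. Among the 278 regions above 0, 208 were so in all 6 libraries and 70 in some of them. These 278 had a median level of 1.76 FPKM, where annotated protein-coding genes above 0 had 3.40 FPKM and annotated long noncoding RNAs above 0 had 0.112 FPKM. Over all rows, those at 0 included, the median was 1.64 FPKM for the regions and 0.636 FPKM for protein-coding genes. Regions are listed because fragments were assembled there, and annotated genes are listed whatever their level. Levels of the 2 kinds of row are therefore set side by side as a description of unlike sets. A level of 1 FPKM or more was reached by 188 regions, or 67.6% of those above 0, against 64.4% of protein-coding genes and 50.6% of all annotated genes above 0. Of these 188, 16 reached it through 1 group alone, with the means of both other groups below 1 FPKM, and such a region can enter the tests only where its groups differ. These were 4 through knockout on serine, 4 through knockout on water and 8 through control, and they include 1 region called on water against control (region 88) and 2 called on serine against control (regions 88 and 213). The upper end was narrow. Only 10 regions stood above 100 FPKM, and these took between 55.2% and 69.1% of all FPKM assigned to regions in a library. Both strands were used alike, with 151 regions on the plus and 144 on the minus strand. The median transcript length was 1262 bases, with a range of 200 to 13305 bases. A single unspliced block made up 100 regions, or 33.9%.

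**Figure D1:**
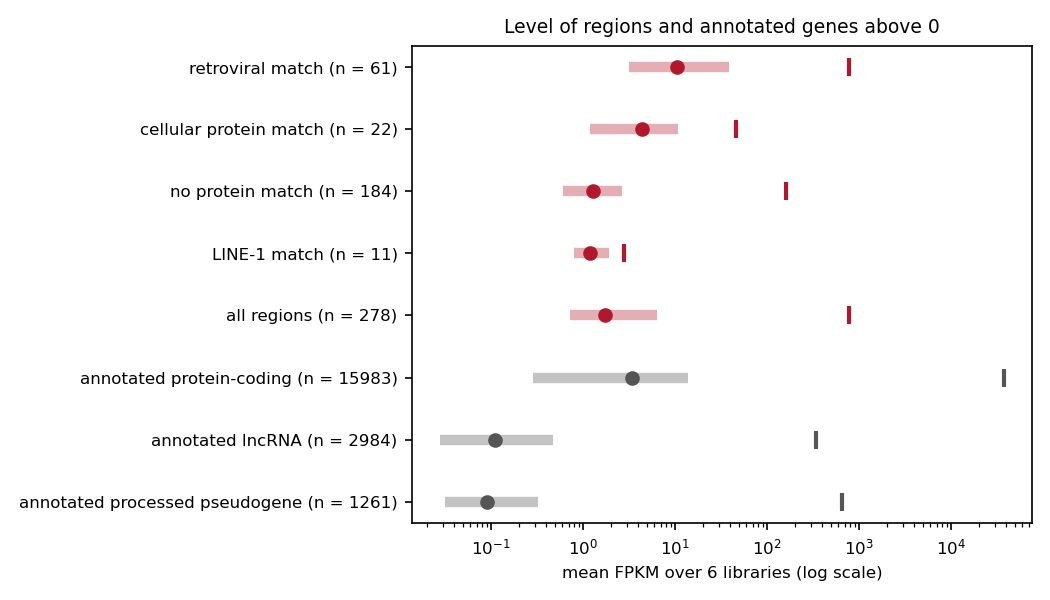
Mean FPKM over the 6 libraries (log scale) of the regions by protein match and of 3 kinds of annotated gene, for rows above 0 in any library. Dots are medians, bars run between the quartiles and ticks mark the highest row. Regions with a retroviral match had a median of 10.4 FPKM, above the 3.40 FPKM of annotated protein-coding genes.

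The deposited descriptions name a best protein match for 97 regions. For 61 regions it was a retroviral protein, for 12 a LINE-1 protein and for 24 a cellular protein, and 198 regions had none. Most of the retroviral matches were to gammaretroviruses of other mammals, which share sequence with mouse proviruses. The woolly monkey sarcoma virus was named for 19 regions, the feline endogenous virus for 10, xenotropic murine leukaemia-related virus for 8 and the gibbon ape leukaemia virus for 6. Mouse intracisternal A particles, another family of endogenous retroviruses, were named for 5. The match names the closest database protein, and says nothing of the origin of the RNA.

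The 61 retroviral regions were long and abundant. Their median length was 4554 bases and their median level 10.4 FPKM, against 719.5 bases and 1.13 FPKM for the 198 regions with no match. They supplied 9 of the 10 highest regions and 33 of the 56 regions at 10 FPKM or more. Of region FPKM they took 74.8% and 79.0% in the pools of the serine group, 83.3% and 81.4% in knockout pools on water, and 72.9% and 66.9% in control pools. Regions with a LINE-1 match were as long, with a median of 4823 bases, but their median level was 1.10 FPKM. Regions with a cellular match had a median of 3.24 FPKM.

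No region overlapped an annotated gene body. Within 5 kb of an annotated gene lay 148 of them. Among these, by the strand listed, 35 lay downstream of a gene end on the same strand, where they could be read as continuations of the gene. Another 58 lay upstream of a gene start on the opposite strand and 55 had another orientation. A further 120 regions lay 5 to 50 kb from the nearest gene and 22 lay beyond 50 kb. The last 5 were on unplaced scaffolds on which the table lists no annotated gene. The median distance to the nearest annotated gene was 4703 bases (quartiles 762 and 15664), and to the nearest gene at 1 FPKM or more it was 13454.5 bases. The region farthest from any gene was region 135 on chromosome 2, 321927 bases from the pseudogene Gm13464. Chromosome 4 held 25 regions, chromosome 2 held 24 and chromosome 8 held 21.

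Regions on opposite strands of the same place were common. An overlap with another region on the opposite strand was found for 48 regions, in 27 pairs, and 21 of these pairs had at least 1 member with a retroviral match. The lower member of a pair stood at a median of 19.3% of its partner. Whether strand was used in counting is not given in the sources used here, so fragments of a region and of its opposite-strand partner cannot be told apart. The retroviral regions also resemble other copies in the genome, and how the authors counted fragments that map to several copies is not given either. Their single levels are therefore uncertain, while the FPKM that the deposited table assigns to them is what is compared here.

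Library depth was even, and short regions were measured coarsely. Depth, read from the steps between low FPKM values, was 17.3 M to 19.4 M fragments, and between 244 and 253 regions were above 0 in each. In a short region few fragments make a high FPKM. The 10th percentile of values above 0 in single-block annotated genes was 7.71 FPKM at 200 to 250 bases and 0.32 FPKM at 400 to 500 bases, but 0.10 FPKM at 500 to 1000 bases. Of the 64 regions under 500 bases, 34 reached 1 FPKM. Gapdh, the deleted gene, stood at 20.0 and 23.5 FPKM in the knockout pools on serine and at 23.8 and 17.0 FPKM in those on water, against 1091 and 1391 FPKM in the controls.

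Marker lists of the cell types of liver moved with the groups in part, and their part in the results below was not tested. The 8 hepatocyte markers summed to 58491 and 57889 FPKM on serine, 53728 and 62397 FPKM on water and 66656 and 61248 FPKM in controls, a sum that is mostly Alb and that was lower on serine than in controls. Single hepatocyte markers differed in both directions, as Fgb at 471 and 526 FPKM on water and 1123 and 1105 FPKM in controls, or Cps1 at 3283 and 2519 FPKM on water and 1440 and 1083 FPKM in controls. The 5 endothelial markers summed to 80.6 and 88.5 FPKM on serine, 81.0 and 82.7 FPKM on water and 75.8 and 68.4 FPKM in controls, with both knockout groups above control. The largest part was Clec4g, which overlapped between water and control, at 39.4 and 42.2 FPKM against 36.5 and 39.8 FPKM. Pecam1 overlapped between control and each knockout group, and Lyve1 between serine and control, while Stab2 and Kdr were higher in both knockout groups. The 5 cholangiocyte markers summed to 20.4 and 10.4 FPKM on serine, 8.72 and 13.5 FPKM on water and 16.5 and 22.1 FPKM in controls, most of it Spp1. The 4 pancreas markers, with Ins2 at 0, summed to 13.8 and 15.0 FPKM on serine, 7.31 and 10.6 FPKM on water and 24.6 and 18.3 FPKM in controls, almost all of it Cela1. Both of these lists were lower on water than in controls. The 5 lymphocyte markers summed to 1.58 and 1.72 FPKM on serine, 0.61 and 1.24 FPKM on water and 2.80 and 1.71 FPKM in controls, and were also lower on water than in controls. Macrophage markers (6 genes), stellate cell markers (6) and erythroid markers (3) overlapped between knockout on water and control, and were higher in both serine pools than in both controls, at 64.0 and 63.1, 90.7 and 77.4, and 848 and 840.46 FPKM on serine against 58.1 and 44.6, 66.4 and 50.4, and 694 and 661 FPKM. These are sums, and single markers differed. Among macrophage markers, Cd68 and Csf1r were higher in both serine pools, while Clec4f, Vsig4, Adgre1 and Marco overlapped between serine and control. Most of the stellate cell sum was Dcn, and Col1a1 and Col3a1 overlapped. Almost all of the erythroid sum was Hbb-bs and Hba-a1. The erythroid marker Alas2 went the other way, at 25.8 and 24.6 FPKM on serine against 29.3 and 29.2 FPKM in controls. Neutrophil, adipose and muscle markers summed to at most 5.36 FPKM, with Ly6g, Adipoq, Ckm and Myh4 at 0.

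In these libraries more FPKM was assigned to the regions in the knockout livers than in the control livers. Summed over all of them, the regions held 4350 and 6288 FPKM in the knockout pools on serine, 7705 and 5375 FPKM in the knockout pools on water, and 3506 and 2879 FPKM in the controls. Both libraries of each knockout group lay above both control libraries, while the 2 knockout groups overlapped. The mean of the knockout pools on water was 2.05 times that of the controls and the mean of the knockout pools on serine 1.67 times. The mean on serine was 0.813 times that of the knockout pools on water. A two-sided exact permutation test over libraries gave p = 0.333 for either knockout group against control and p = 0.667 between the knockout groups, and 2 against 2 libraries cannot go below 0.333.

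The retroviral class carried most of this difference. It summed to 4109 ± 1212 FPKM in the knockout pools on serine, 5397 ± 1442 FPKM in the knockout pools on water and 2241 ± 444 FPKM in the controls (SD, n = 2 each). The ratio to control was 1.83 on serine and 2.41 on water. A few high regions weighed most in these sums. The 10 highest regions, 9 of them retroviral, were at 1.83 times the control on serine and 2.39 times on water. All regions but those 10 were at 1.44 and 1.57 times. Annotated genes whose deposited description has a retroviral match, 329 in number and including cellular genes with a retroviral stretch in a transcript, were at 1.53 and 1.77 times the control. The 12 LINE-1 regions ran the other way. They summed to 14.7 and 13.3 FPKM on serine, 11.9 and 12.9 FPKM on water and 19.8 and 19.6 FPKM in controls, or 0.713 and 0.630 times the control mean, where the 506 annotated genes with a LINE-1 match stood at 0.812 and 0.765 times. Regions with a cellular match were at 1.50 and 1.19 times the control, and regions with no match at 1.22 times in both knockout groups.

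**Figure D2:**
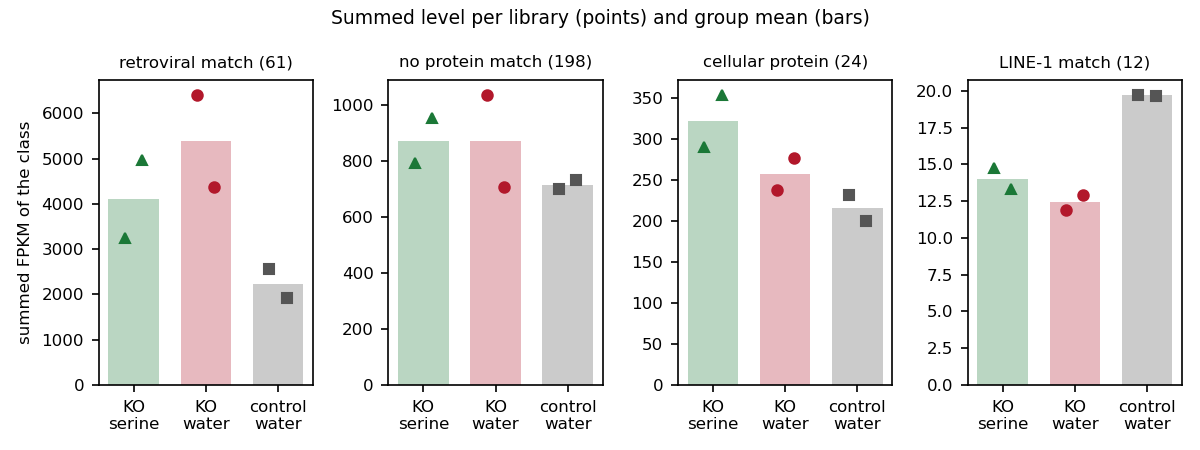
Summed FPKM of the regions in each class of protein match, per library (points) with the group mean (bars), for knockout on serine, knockout on water and control on water. The retroviral sums of both knockout groups lie above both control libraries (2555 and 1926 FPKM), and the LINE-1 sums of both knockout groups lie below them.

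The first comparison, knockout on water against control on water, asks what losing hepatocyte Gapdh changes in the fasted liver. Of the 188 regions tested, 13 rose and 4 fell (limma on log2 of FPKM + 0.5 over all 11322 rows at a mean of 1 FPKM or more, Benjamini-Hochberg adjusted p under 0.05). This was 9.04% of the regions, where 1.43% of all rows passed, 0.972% upward and 0.459% downward. Fold changes are on the log2(FPKM + 0.5) scale, which understates those of low regions. The median change of the tested regions was 0.33, against 0.09 over all rows, and 0.35 without the 15 regions that were listed at 0 in both libraries of a group. Complete separation of the libraries upward was seen for 79 regions, or 42.0%, where 34.6% of all rows showed it, and downward for 38, or 20.2%, against 20.9% of all rows. Scaled by median of ratios, 7 regions rose and 4 fell. Which regions passed depended on single libraries. Without 1 of the control libraries or of the knockout libraries on water, most calls were lost, and some regions that passed then were not among those called here. The median change of the regions was then 0.21 to 0.43.

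Retroviral regions made up 8 of the 13 that rose. Of those tested, 15.5% passed in either direction, where 1.43% of all rows did. Of the 58 retroviral regions tested, 51 had a positive change, or 87.9% where 59.0% of all rows had one, and the median change was 0.87. Both knockout libraries lay above both control libraries in 42, or 72.4%, against 34.6% of all rows. They lay below both in 4, or 6.90%, against 20.9%. Region 64 (chromosome 13, 55332115 to 55337052, minus strand, GRCm39, as all coordinates here), a single block of 4938 bases matched to the pol protein of the feline endogenous virus, stood at 351 and 1227 FPKM on serine, 1401 and 423 FPKM on water and 25.6 and 22.8 FPKM in controls. Every knockout library was more than 10 times above either control library, and the 2 pools of each knockout group differed from each other. Its log2 change was 4.96 (SE 0.71, adjusted p = 0.0384). It lies 15543 bases from Fgfr4, the fibroblast growth factor receptor of hepatocytes, which stood at 11.1 and 10.7 FPKM on water and 10.1 and 12.4 FPKM in controls. Its opposite-strand partner, region 59, was at 11.7 and 4.60 FPKM on water and at 0.48 and 0 FPKM in controls, and did not pass (3.49, adjusted p = 0.0626).

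The region with the highest level of all, region 36 (chromosome 11, 86702517 to 86707820, plus strand), is a single block of 5304 bases matched to the woolly monkey sarcoma virus. It stood at 701 and 886 FPKM on serine, 1344 and 1001 FPKM on water and 419.8 and 283 FPKM in controls. The groups do not overlap, and the log2 change on water was 1.75 (SE 0.25, adjusted p = 0.0381). Region 42, spliced over 59776 bases on the other strand of the same place, stood at 42.7 and 34.1 FPKM on water and 10.5 and 13.4 FPKM in controls (1.65, adjusted p = 0.0341). The nearest gene of both is Dhx40, a helicase gene 3945 bases from region 36, which did not pass (-0.18, adjusted p = 0.519).

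The other retroviral regions that rose were lower in level than regions 36 and 64. Region 149 (chromosome 2, 75468712 to 75473279, minus strand), matched to the gibbon ape leukaemia virus, stood at 280.2 and 326 FPKM on serine, 384 and 301 FPKM on water and 152.5 and 169 FPKM in controls (1.08, adjusted p = 0.0415). Region 194 (chromosome 5, 135652480 to 135659236, plus strand) stood at 8.55 and 24.6 FPKM on serine, 82.5 and 34.5 FPKM on water and 5.04 and 3.99 FPKM in controls (3.43, adjusted p = 0.0496). It lies 2236 bases upstream of Rhbdd2, a gene of a rhomboid-domain protein. Rhbdd2 stood at 17.0 and 15.3 FPKM on water and 13.1 and 9.73 FPKM in controls (0.50, adjusted p = 0.235). Region 166 (chromosome 4, 12131989 to 12138217, plus strand), 14 bases from the pseudogene Gm11843, had its highest values on serine. It stood at 74.5 and 72.2 FPKM there, 63.9 and 39.3 FPKM on water and 16.4 and 9.94 FPKM in controls (1.93, adjusted p = 0.0459). Gm11843 was also highest on serine, at 16.05 and 9.43 FPKM. It was at 5.16 and 8.58 FPKM on water and 4.18 and 2.34 FPKM in controls, and did not pass (0.98 on water, adjusted p = 0.204). Region 65 on chromosome 13, matched to the baboon endogenous virus, rose as well, at 85.9 and 39.3 FPKM on water and 13.2 and 10.6 FPKM in controls (2.25, adjusted p = 0.0494). Region 52 on chromosome 12, matched to the koala retrovirus, was at 30.3 and 46.7 FPKM on water and 9.07 and 7.21 FPKM in controls (2.15, adjusted p = 0.0415).

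High level and change did not go together throughout the class. Region 123 (chromosome 19, 4110170 to 4116449, plus strand), 601 bases upstream of Gstp3, a glutathione S-transferase gene of the pi class, was among the 3 highest regions. It stood at 384 and 427 FPKM on serine, 657 and 621 FPKM on water and 658 and 500.35 FPKM in controls, with the groups on water overlapping (0.16, adjusted p = 0.620). Its opposite-strand partner, region 126, was at 154 and 135 FPKM on water and 135 and 94.2 FPKM in controls (0.35, adjusted p = 0.344). Regions 190 (1.50, adjusted p = 0.0786), 109 (1.12, adjusted p = 0.108), 184 (0.91, adjusted p = 0.178) and 136 (1.91, adjusted p = 0.140) did not pass either, with positive values. By virus named, the median change on water was 0.34 for the 4 tested intracisternal A particle regions, 0.91 for the 19 of the woolly monkey sarcoma virus and 1.05 for the 8 of the murine leukaemia-related virus.

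A single retroviral region fell. Region 88 (chromosome 15, 75829510 to 75839016, minus strand), 9312 bases long and matched to the feline endogenous virus like region 64, stood at 0.55 and 0.24 FPKM on serine, 0.35 and 0.49 FPKM on water and 5.53 and 4.25 FPKM in controls. All 4 knockout libraries lay below both control libraries (log2 change on water -2.54, SE 0.32, adjusted p = 0.0331). Its mean of 1 FPKM or more came from the controls alone, so that it could be tested only because the groups differ. It ends 60 bases from the pseudogene Eif2s3x-ps1 and 1956 bases from Zfp707, a zinc finger gene, which stood at 10.4 and 10.6 FPKM on water and 16.5 and 16.2 FPKM in controls.

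**Figure D3:**
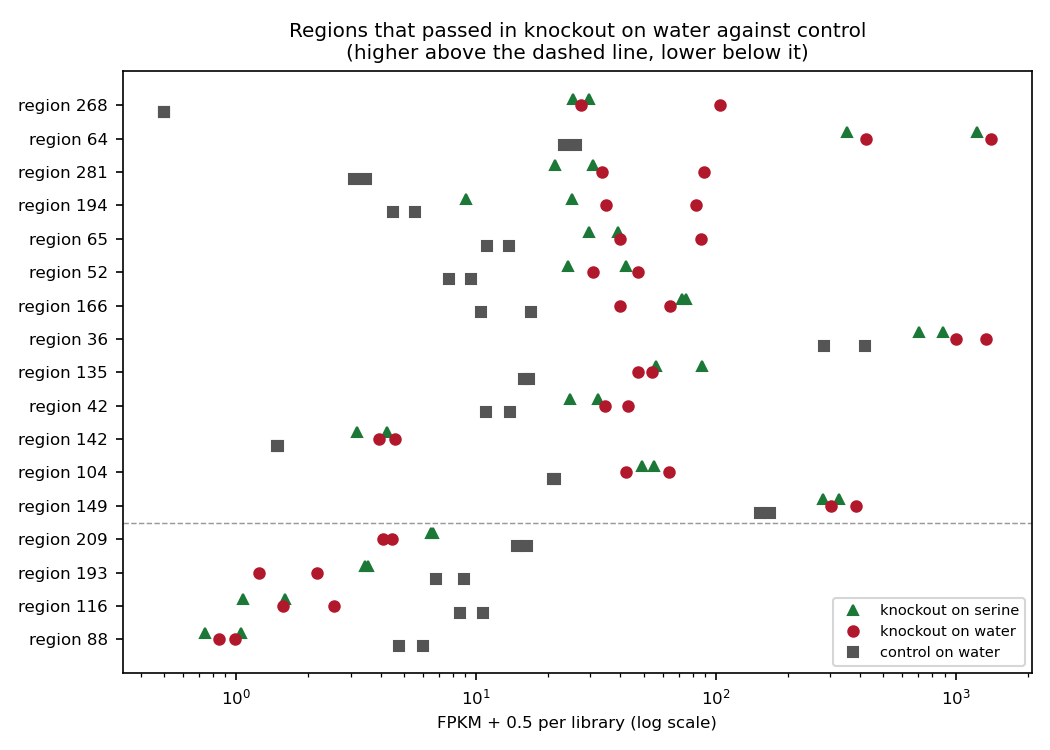
FPKM + 0.5 per library (log scale) of the 13 regions that rose and the 4 that fell in knockout on water against control on water, with the libraries of knockout on serine shown beside them. Each row is a region and each point a library. For region 268 both control libraries are at 0.

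Among the 105 tested regions with no protein match, 3 rose and 3 fell, or 5.71%, where 1.43% of all rows passed. Their median change was 0.05. Region 281 (chromosome X, 33278913 to 33284145, minus strand), spliced from blocks of 615 bases in all, stood at 20.8 and 30.2 FPKM on serine, 89.0 and 33.1 FPKM on water and 2.61 and 2.96 FPKM in controls (4.06, SE 0.44, adjusted p = 0.0327). The nearest annotated gene, Btbd35f6, is 108362 bases away and was at 0 in all libraries. Region 268, of 368 bases on an unplaced scaffold, was at 29.2 and 24.8 FPKM on serine and 104.0 and 27.0 FPKM on water, and listed at 0 in both controls (adjusted p = 0.0187). Region 142 (chromosome 2, 166035309 to 166045091, plus strand) stood at 3.43 and 4.08 FPKM on water and 0.98 and 1.00 FPKM in controls (1.51, adjusted p = 0.0477). Its nearest gene at 1 FPKM or more is Sulf2, which encodes a heparan sulfate sulfatase. Sulf2 stood at 15.85 and 15.0 FPKM on water and 7.55 and 7.95 FPKM in controls, and did not pass (0.95, adjusted p = 0.0713).

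The regions with no match that fell included the one with the smallest SE among those that passed. Region 209 (chromosome 6, 121114378 to 121132211, plus strand), 9532 bases long, stood at 6.13 and 5.96 FPKM on serine, 3.60 and 3.96 FPKM on water and 15.8 and 14.4 FPKM in controls. The 3 groups are separated, with the knockout pools on serine in between (log2 change on water -1.86, SE 0.15, adjusted p = 0.0187). Region 116 (chromosome 18, 46776189 to 46791989, plus strand) stood at 1.10 and 0.57 FPKM on serine, 1.06 and 2.06 FPKM on water and 10.2 and 8.10 FPKM in controls (-2.27, adjusted p = 0.0414). It begins 152 bases after the end of the long noncoding RNA Gm3734 on the same strand, which stood at 1.70 and 2.91 FPKM on water and 16.3 and 11.0 FPKM in controls (-2.34, adjusted p = 0.0568). Region 193 (chromosome 5, 121837313 to 121846389, plus strand), 3011 bases upstream of Atxn2, stood at 0.74 and 1.68 FPKM on water and 8.38 and 6.28 FPKM in controls (-2.24, adjusted p = 0.0381). It rests on about 170 fragments over the 6 libraries.

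None of the 7 tested LINE-1 regions passed in limma, with a median change of -0.92 and 2 positive values. At an unadjusted p under 0.05 there were 1 higher and 4 lower, where 14.1% of all rows were higher and 7.68% lower. The lowest was region 220 on chromosome 7, 3701 bases from the sulfotransferase gene Sult2a8, at 0.14 and 0.42 FPKM on water and 2.22 and 2.30 FPKM in controls (-1.85, adjusted p = 0.0816). Region 220, counted among the 4 lower, reached a mean of 1 FPKM through the controls alone, so that it could be tested only because the groups differ. Region 106 on chromosome 17, matched to the first reading frame protein, was at 0.79 and 1.91 FPKM on water and 4.42 and 4.30 FPKM in controls (-1.46, adjusted p = 0.0986). Region 74, among the 3 longest at 10322 bases and 1236 bases from Ccser2, was at 0.64 and 1.70 FPKM on water and 3.81 and 2.91 FPKM in controls (-1.28, adjusted p = 0.175). The positive values were those of regions 80 (1.08, adjusted p = 0.371) and 226 (0.75, adjusted p = 0.133).

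Of the 18 tested regions with a cellular match, 2 rose, or 11.1%, where 0.972% of all rows rose. Region 104 (chromosome 17, 35737122 to 35756710, plus strand), matched to a mouse class I histocompatibility heavy chain, lies 24276 bases from H2-Q10, a class I gene of hepatocytes. It stood at 48.7 and 54.6 FPKM on serine, 41.9 and 63.4 FPKM on water and 20.5 and 20.9 FPKM in controls (1.29, SE 0.21, adjusted p = 0.0483). H2-Q10 itself stood at 1355 and 1145 FPKM on serine, 1100.36 and 1134 FPKM on water and 953 and 926 FPKM in controls (0.25 on water, adjusted p = 0.334). Class I genes are a family of near-identical members, so the level of region 104 is uncertain. Region 135, of 417 bases and matched to a human zinc finger protein, stood at 56.0 and 87.1 FPKM on serine, 47.0 and 53.8 FPKM on water and 15.3 and 16.1 FPKM in controls (1.65, adjusted p = 0.0374).

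The other cellular matches included a cluster near the end of the X chromosome. Between 168856008 and 169105574 lay 10 regions, 8 of them matched to steryl-sulfatase, which removes sulfate from steroids, to the synaptic adhesion protein neuroligin 4, to the splicing-associated anchor protein AKAP17A or to an acetylserotonin O-methyltransferase-like protein. The annotated genes on either side are Erdr1 and Asmt, and Asmt was at 0 in every library. Region 286, matched to steryl-sulfatase and spread over 105973 bases, was at 41.1 and 36.7 FPKM on serine, 42.4 and 32.2 FPKM on water and 38.2 and 42.7 FPKM in controls. None of the 10 passed in any comparison, and their changes on water ran from -0.55 to 0.44, with a smallest adjusted p of 0.227. Region 83, matched to the glucuronosyltransferase Ugt3a1 and 3927 bases past the end of that gene, was at 27.1 and 23.1 FPKM on serine, 28.3 and 28.7 FPKM on water and 29.5 and 40.5 FPKM in controls (-0.27 on water, adjusted p = 0.429).

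The second comparison, knockout on serine against knockout on water, asks what serine changes in livers that lack hepatocyte Gapdh. It shares the knockout libraries on water with the first comparison. A high level in those libraries raises the change in the first and lowers it here, so the results are not independent. No region passed, and 0 of the 11322 rows did (0%). At an unadjusted limma p under 0.05, 8 of the 188 regions had a positive and 11 a negative change. Of all 11322 rows, 575 (5.08%) and 236 (2.08%) had one. The median change of the regions was -0.09, against 0.08 over all rows. Complete separation upward was seen for 24 regions, or 12.8%, against 26.7% of all rows, and downward for 42, or 22.3%, against 11.1% of all rows.

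The retroviral regions were mostly on the lower side. Of the 58, 11 were positive, or 19.0% where 63.6% of all rows were, and their median was -0.31. Both libraries on serine lay below both on water in 22, or 37.9%, against 11.1% of all rows. They lay above both in 2, or 3.45%, against 26.7%. The value of region 123 was -0.66 (SE 0.16, adjusted p = 0.654), that of region 36 was -0.56 (adjusted p = 0.701) and that of region 194 was -1.84 (adjusted p = 0.673). Against these, regions 166 (0.54) and 136 (0.35) had positive values, with adjusted p = 0.740 and 0.901. The pools of a group varied: the retroviral sum was 3252 and 4966 FPKM on serine and 6417 and 4377 FPKM on water, so that the groups overlap. The LINE-1 regions had a median of 0.23 and the regions with a cellular match 0.08.

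Of the 10 named regions with the largest separated differences with serine, none passed, and their lengths ran from 206 bases to the 5443 bases of region 194, given above. Region 221, of 206 bases, was at 38.1 and 30.5 FPKM on serine and listed at 0 in both libraries on water, but its controls were at 0 and 101 FPKM. Region 68, of 220 bases, was at 33.5 and 0.40 FPKM on serine, 0 and 0 on water and 31.7 and 8.35 FPKM in controls. At 200 to 250 bases the median of all values above 0 in single-block annotated genes was 54.7 FPKM. Region 161, spliced over 95553 bases of chromosome 3, was listed at 0 in both libraries on serine and stood at 1.36 and 3.15 FPKM on water.

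**Figure D4:**
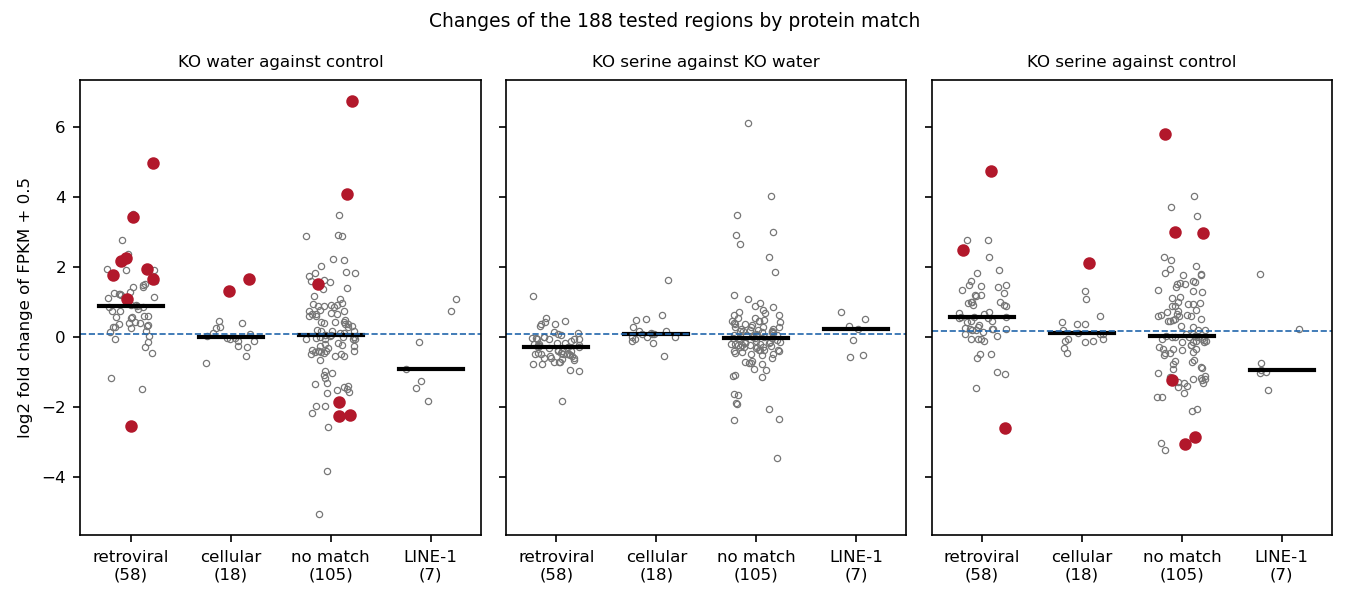
Log2 fold change of FPKM + 0.5 for the 188 tested regions by protein match, in the 3 comparisons. Filled points passed, open points did not, black lines are class medians and the dashed line is the median of all rows tested. Where a group is listed at 0 the plotted value depends on the added 0.5. The retroviral medians are 0.87, -0.31 and 0.56, and the LINE-1 medians -0.92, 0.23 and -0.95.

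The third comparison, knockout on serine against control on water, differs in both genotype and drink, and shares its groups with the first 2. Of the 188 regions, 6 rose and 4 fell, or 5.32%, where 1.21% of all rows passed, 0.883% upward and 0.327% downward. The median change was 0.22 among the regions and 0.16 over all rows. Libraries separated upward for 70 regions, or 37.2%, against 41.4% of all rows, and downward for 40, or 21.3%, against 15.6%. Scaled to TPM, 17 regions rose and 5 fell, and scaled by median of ratios, 4 rose and 3 fell. Most calls were lost without replicate 2 on serine or without any 1 of the control libraries or of the knockout libraries on water. What passed without a control library was not among the regions called here. The median change of the regions in these fits was 0.11 to 0.34.

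The regions that rose on serine were 64 (4.73, SE 0.71, adjusted p = 0.0456) and 166 (2.47, adjusted p = 0.0369) among the retroviral ones, 135 (2.12, adjusted p = 0.0351) with a cellular match, and 281 (2.96, adjusted p = 0.0456), 268 (adjusted p = 0.0351) and 213 with none. Region 213, of 297 bases on chromosome 6, was at 4.32 and 2.75 FPKM on serine and listed at 0 in the other 4 libraries (adjusted p = 0.0369). The 10th percentile of values above 0 at 250 to 300 bases was 2.35 FPKM, so few fragments stand behind it. Its mean of 1 FPKM or more came from the serine group alone, so that it could be tested only because the groups differ, and its call is given as a description. Those that fell were 161 (adjusted p = 0.0456), at 0 in both serine libraries and at 2.56 and 5.16 FPKM in controls, 116 (-2.88, adjusted p = 0.0369), 88 (-2.60, adjusted p = 0.0369) and 209 (-1.25, adjusted p = 0.0369). Region 88 reached a mean of 1 FPKM through the controls alone, so its call too is given as a description. Of the 58 retroviral regions 2 rose and 1 fell (region 88), or 5.17%, where 1.21% of all rows passed. A value above 0 was seen for 47, or 81.0% where 66.3% of all rows had one. Their median was 0.56 beside the 0.16 of all rows.

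Positions allowed each region to be set against its neighbour. For 181 tested regions the nearest other annotated gene that was tested was found, and the difference between the changes of region and gene was fitted in limma over 11314 such pairs of all rows. In knockout on water against control 3 regions differed from their neighbour, where 0.159% of all pairs did, 2 without knockout on water replicate 2, and 0 without any other single library. Region 209 was lower by 2.79 than Mical3 (SE 0.24, adjusted p = 0.0287), a gene of an actin-oxidising enzyme that begins 6419 bases away on the other strand and stood at 13.9 and 12.1 FPKM on water and 6.92 and 6.29 FPKM in controls. Region 197 (chromosome 5, 51441273 to 51446679, minus strand) differed by -2.08 (adjusted p = 0.0493) from Ppargc1a, the coactivator of gluconeogenic genes, 164913 bases away, which rose (1.57, adjusted p = 0.0398). Region 197 itself was at 1.33 and 1.30 FPKM on water and 2.22 and 1.95 FPKM in controls and did not pass (-0.51, adjusted p = 0.328). Region 281 differed by 3.98 (adjusted p = 0.0287) from Il13ra1, but that partner is 2091618 bases away. No region differed from its neighbour on serine against water, where 0% of pairs did, or on serine against control, where 0.0795% did.

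How alike a region and its neighbour changed was described by distance. Across the 65 regions within 5 kb of their partner, the Pearson correlation of the 2 changes on water against control was 0.37 and the Spearman correlation 0.44, with the same sign in 42. Across the 116 regions beyond 5 kb these were 0.00 and 0.04, with the same sign in 60. Among annotated genes within 5 kb, many of which overlap their partner, the Pearson correlation was 0.13 over 5740 pairs. Region and gene come from the same libraries, and fragments at a shared boundary may be given to either. Region 116 and Gm3734 are such a pair, with changes of -2.27 and -2.34. Region 152, 10646 bases long and 1 base from the long noncoding RNA Ctcflos on the other strand, was at 16.5 and 14.6 FPKM on water and 11.8 and 7.99 FPKM in controls (0.65, adjusted p = 0.199). Ctcflos rose, at 58.4 and 49.6 FPKM on water and 21.0 and 22.2 FPKM in controls (1.30, adjusted p = 0.0331).

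**Figure D5:**
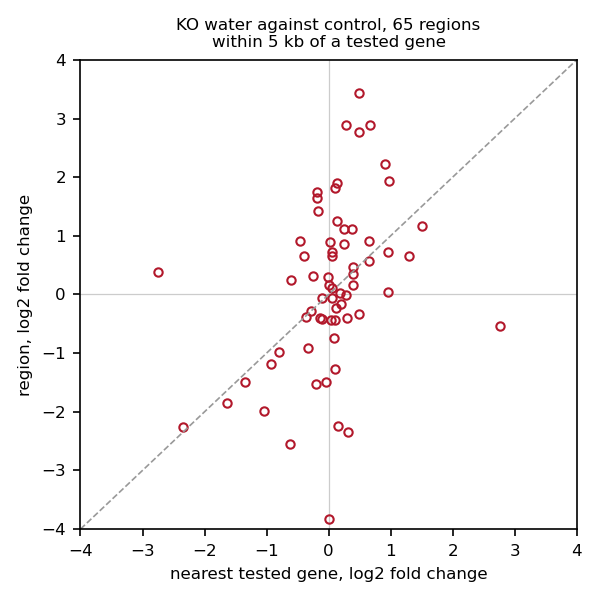
Log2 fold change on the log2(FPKM + 0.5) scale, knockout on water against control on water, of each of the 65 tested regions within 5 kb of a tested annotated gene (vertical) and of that gene (horizontal). The dashed line marks equal change. The points scatter widely about it, with a Pearson correlation of 0.37.

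The extremes of size differed in level. The longest transcript, region 131 on chromosome 2, is a single block of 13305 bases, at 0.32 and 0.77 FPKM on serine, 1.56 and 1.06 FPKM on water and 0.68 and 0.58 FPKM in controls. The widest, region 265 on a scaffold, spans 217618 bases and is matched to trimethyllysine dioxygenase, an enzyme of carnitine synthesis. It was at 5.37 and 5.85 FPKM on serine, 4.21 and 3.46 FPKM on water and 4.43 and 3.68 FPKM in controls (-0.07 on water, adjusted p = 0.856). Region 62, spread over 110992 bases of chromosome 13, was at 17.9 and 14.6 FPKM on water and 10.1 and 24.1 FPKM in controls. The 3 shortest regions, of 200, 201 and 204 bases, were at 0 in every library, apart from 132 FPKM for region 119 in 1 library on serine. Region 270 fills 3771 bases at the start of a scaffold with no annotated gene, and is the only region without a protein match among the 10 highest. It was at 159 and 146 FPKM on serine, 191 and 130.0 FPKM on water and 164 and 169 FPKM in controls (-0.08 on water, adjusted p = 0.840).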

How the data were processed

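Liver RNA-seq values were used as FPKM, which the authors computed per gene and deposited for 6 libraries. Named in the submitters' processing notes are bcl2fastq, HISAT2 2.0.5 and GRCm39. Not given in the sources used here are the FPKM tool, the assembler that defined the regions, the annotation release, the library type and the use of strand. Both deposited tables gave identical values for all regions. Protein matches, blocks and coordinates are those of the deposited tables. Sequences of the regions are not used here. Rows with a mean FPKM of 1 or more were fitted in limma 3.58.1 (R 4.3.3) as log2(FPKM + 0.5) with 3 group means and a variance trend, with 3 residual and 3.36 prior degrees of freedom. Benjamini-Hochberg adjustment covered all rows, tests were two-sided and the threshold was 0.05. The fit was checked on simulated data. Fragments were implied from the steps between low values, with 84.6% to 89.3% of low genes at whole multiples within 0.03 beyond rounding, where chance gives 17.4% to 19.0%. Regions named were the 10 highest, those that passed, those with the largest separated changes, those that differed from their neighbour, the extremes of size and the highest per position class. Regions 80, 83, 106, 220 and 226 and the cluster on chromosome X were chosen after their values were seen. The members and lists were chosen with earlier results of these data known.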

Additional observations from a re-analysis of the deposited data

How the results depend on the processing

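The counts of regions that passed depended on the fit, and the cause was not tested. In knockout on water against control, 17 passed; 9 did with a filter at 0.3 FPKM, 0 with no filter, 11 with median-of-ratios scaling, 3 with no variance trend and 0 to 15 with 1 library left out (0 without control replicate 2, 1 without control replicate 1, 1 without knockout on water replicate 1 and 4 without its replicate 2). In knockout on serine against control, 10 passed; 0 did with no filter, 17 with a filter at 5 FPKM, 22 with TPM scaling, 2 with no variance trend, 2 with only the 4 libraries compared, 21 among regions and genes of 500 bases or more (chosen after seeing the data) and 0 to 8 with 1 library left out (0 without replicate 2 on serine, 8 without its replicate 1, and 1 or 2 otherwise). Between the knockout groups, 0 passed; 1 did with only the 4 libraries compared, and 0 to 1 with 1 library left out. Region and neighbour differed for 3 regions on water against control, and for 0 with a filter at 0.3 FPKM, no filter, a same-strand partner or only the 4 libraries compared, and 0 to 2 with 1 library left out. On serine against water they differed for 0 to 1 with 1 library left out. On serine against control they differed for 0, and for 1 with a pseudocount of 1, 2 with a filter at 5 FPKM and 0 to 1 with 1 library left out.

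Replicate numbers in the labels are not said to pair pools. With the replicate block, 0 regions and 0 region-neighbour differences passed in each comparison. Deviations of same-numbered libraries correlated at 0.02, -0.20 and 0.04 for water against control, serine against water and serine against control, and with the numbers crossed in the serine group the block gave 0 calls. Within 1 kb of a gene lay 79 regions, against 148 within 5 kb. The summed FPKM of the regions kept its direction in every alternative run, but hardly so between the knockout groups. There its log2 fold on serine against water was -0.298. It was -0.015 without knockout on water replicate 1 and -0.057 without replicate 1 on serine. Among named regions, the change of region 270 on water against control was 0.000448 with TPM scaling and -0.36 to 0.20 with 1 library left out, against -0.08, and that of region 123 was -0.042 to 0.35 with 1 library left out, against 0.16. Of the other values of named regions under the alternatives, 591 kept direction and side of the threshold, 232 lost their call and 12 gained one. Replicates correlated at 0.80 to 0.88 across regions and at 0.96 to 0.97 across all rows.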
